A study of Mus musculus with 54 samples.

Results

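The genes described here encode the nuclear part of the mitochondrial respiratory chain. They were chosen by name from the deposited expression tables, whose unit is log2 CPM (reads per gene scaled to library size): every symbol that starts with Ndufa, Ndufb, Ndufc, Ndufs, Ndufv, Uqcr, Cox4i, Cox5, Cox6, Cox7, Cox8 or Atp5, plus Sdha, Sdhb, Sdhc and Sdhd. Of 21048 symbols found at any age, 89 met the rule, and 1 pseudogene row, Atp5l-ps1, was dropped. The P28 values covered 89 of them, the P5 values 88 and the 9-week values 87. Genes that reached 1 CPM in enough libraries were tested, which left 87 members at 9 weeks, 87 at P28 and 85 at P5. The members that were not tested were isoforms with very few reads: Cox6a2 and Cox8b at P28, and Cox4i2, Cox6a2 and Cox7b2 at P5. Cox6a2 and Cox8b had no row at 9 weeks, nor did Cox8b at P5.

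RNA was taken from whole mouse cerebellum at postnatal day 5 (P5), at P28 and at 9 weeks. At 9 weeks there were 7 libraries labelled Control and 7 labelled RnaseH2B Nes-cre. The P28 set had 5 libraries for each of the genotypes Control, RnaseH2B Nes-cre, Atm Nes-cre and RnaseH2B,Atm Nes-cre. At P5 there were 3 libraries each of Control, RnaseH2B Nes-cre, Atm Nes-cre and p53 Nes-cre, with 4 of RnaseH2B,Atm Nes-cre and 4 of RnaseH2B,p53 Nes-cre. Below, the groups are called Control, Rnaseh2b, Atm, p53, Rnaseh2b/Atm and Rnaseh2b/p53. The P28 libraries were poly-A selected, while the P5 and 9-week libraries were of total RNA, so ages were never fitted together. Nes-cre is Cre recombinase under the nestin promoter, which is active in neural progenitors. Neurons and glia that descend from these cells therefore carry the deletion, while microglia and vessel cells mostly do not. The Rnaseh2b product is a subunit of RNase H2, which cuts ribonucleotides out of the genome. ATM is a kinase activated by double-strand breaks, and p53 is a transcription factor of the damage response. The labels give neither the alleles nor whether controls carry Cre, and nothing in them ties each replicate to its own mouse. The p-values therefore describe the spread among these libraries, which may be technical.

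As a check of the labels, Rnaseh2b transcripts averaged 2.84 ± 0.09 log2 CPM (SD, n = 5) in P28 Control and 0.90 ± 0.24 in P28 Rnaseh2b/Atm, and they were lower in every other group labelled with the deletion. Atm transcripts averaged 4.83 ± 0.06 in P28 Control, 4.79 ± 0.15 in P28 Atm and 4.05 ± 0.05 in P28 Rnaseh2b/Atm. The total level of Atm therefore does not check the label of the P28 Atm libraries. At P5 Atm transcripts averaged 5.87 ± 0.46 in Control, 5.58 ± 0.50 in Atm and 5.54 ± 0.19 in Rnaseh2b/Atm. Both groups overlapped Control, so total Atm does not check their labels against it. The P5 Rnaseh2b/Atm libraries, from 5.28 to 5.70, did lie below those of Rnaseh2b/p53, from 5.84 to 6.10. Cerebellar markers were present at P28, where Pcp2 of Purkinje cells ran from 7.62 to 8.45 log2 CPM and Gabra6 of granule neurons from 7.02 to 9.82. At P5 Pcp2 ran from -2.23 to 5.87, and Gabra6, a late granule neuron gene, from -3.98 to 3.15. Xist, a transcript of female cells, ran from 7.73 to 8.46 log2 CPM in P5 Control. It ran from -0.69 to 7.81 in Rnaseh2b, -0.47 to 7.79 in Atm and -0.85 to 8.35 in p53. In Rnaseh2b/Atm it ran from -2.27 to 7.72 and in Rnaseh2b/p53 from -2.18 to 8.29. P28 Control ran from -2.56 to 9.88, and 9-week Control from 0.19 to 10.86. The P5 Control libraries were thus all high in Xist, unlike the other P5 groups. Fits with Xist as a covariate are given below.

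The respiratory chain moves electrons from NADH and succinate to oxygen through complexes I to IV of the inner mitochondrial membrane. Complexes I, III and IV pump protons as they do so, and the ATP synthase lets the protons back to make ATP. Most subunits are encoded in the nucleus, while a small set of core subunits is encoded by mitochondrial DNA, so both genomes must supply each complex except complex II. Firing neurons draw most of their ATP from this pathway, and many nuclear genes of the chain are known targets of the transcription factors NRF1, GABPA and YY1.

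By complex, the 87 members tested at P28 were 36 of complex I, 4 assembly factors of complex I (Ndufaf1, Ndufaf2, Ndufaf3 and Ndufaf4), 4 of complex II, 8 of complex III, 17 of complex IV, 16 of the ATP synthase and 2 related to it by name, Atp5s and Atp5sl. Ndufa4 and its relative Ndufa4l2 are counted with complex IV, where Ndufa4 is now placed. Atp5l2 is a pseudogene in later annotation, and its reads may be shared with Atp5l. Many short members also have processed pseudogenes, and the sources used do not state how reads matching both were counted.

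RefSeq promoter windows, from 250 bases before to 50 after a start site in GRCm38.p6, were found for 74 members, in 80 windows. The NRF1 motif (the letters GCGCA, any base, then GCGC), searched on both strands like the others below, lay in 19 of these windows (23.8%) against 4.60% of all 32851 windows in the table. The YY1 motif AANATGGCG lay in 12 member windows (15%) against 2.38%, and the ETS-type GABPA motif CCGGAAG in 17 against 8.86%. By contrast, TATAAA lay in 8 (10%) against 13.6%. At least 1 of the NRF1, GABPA and YY1 motifs was present in 42 member windows (52.5%) and in 14.2% of all windows. A match is a description of the letters, not a binding site. The 100 bases upstream of the start are printed for 4 members that the results below turn on, with NRF1 motifs in capitals. Sdha (chr13:74350241-74350340, minus strand) and Atp5g2 (chr15:102671048-102671147, minus strand) hold the motif, while Cox7a2l (chr17:83514334-83514433, minus strand) and Ndufb5 (chr3:32736963-32737062, plus strand) hold no searched motif in these letters.
Sdha: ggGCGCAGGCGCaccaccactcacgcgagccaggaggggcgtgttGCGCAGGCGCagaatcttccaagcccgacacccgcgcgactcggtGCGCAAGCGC
Atp5g2: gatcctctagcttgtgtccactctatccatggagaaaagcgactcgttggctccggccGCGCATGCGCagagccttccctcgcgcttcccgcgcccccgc
Cox7a2l: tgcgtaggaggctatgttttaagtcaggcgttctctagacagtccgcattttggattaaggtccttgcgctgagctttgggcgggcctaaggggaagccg
Ndufb5: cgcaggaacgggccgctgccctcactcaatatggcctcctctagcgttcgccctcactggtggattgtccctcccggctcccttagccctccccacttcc

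Levels of different genes were compared as FPKM, which divides by a length for each gene. At 9 weeks these are values that the authors had adjusted between sets of libraries. For some members the length behind the FPKM was not the GENCODE transcript length. In P28 Control, Ndufb2 (455 bases) and Ndufb3 (763 bases) had log2 CPM of 5.40 and 5.42, but FPKM of 7.42 and 55.8. Orders and medians across genes in FPKM carry this limit. In control cerebellum Cox4i1, a constitutive subunit of complex IV, was the highest member at every age, at 416 ± 27 FPKM at 9 weeks (SD, n = 7), 537 ± 96 at P28 (n = 5) and 412 ± 19 at P5 (n = 3). Cox8a, Ndufa4 and Cox6b1, also of complex IV, were among the next highest at each age. Their SDs overlapped, as for Cox8a at 341 ± 42 and Ndufa4 at 314 ± 25 at 9 weeks, so their order is not resolved. Atp5a1, the alpha subunit of the ATP synthase, was the highest of that complex at 250, 293 and 302 FPKM at 9 weeks, P28 and P5. Complex I medians were 42.7, 52.9 and 42.6 FPKM in the same order of ages, and complex III medians 78.6, 102 and 97.9. Across 85 members the order of control levels was alike between ages, with Spearman rho from 0.937 (P5 with P28) to 0.960 (P28 with 9 weeks). These are correlations across genes of libraries from different RNA selections and are given as descriptions.

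Complex IV held the widest range, because several of its subunits come as a common isoform and one best known from another tissue. Cox6a1 stood at 177, 293 and 173 FPKM at 9 weeks, P28 and P5, while the heart and skeletal muscle isoform Cox6a2 stood at 0.318, 0.374 and 0.873. Cox8a was accompanied by Cox8b at 0.809, 0.447 and 0.0228 FPKM and by Cox8c at 0.0192 or less. Cox4i2, an isoform typical of lung, was at 1.5, 2.75 and 1.08 FPKM. The muscle form Cox7a1 was higher than these, at 8.38 ± 0.96, 7.01 ± 1.0 and 3.44 ± 0.81 FPKM. Cox7a2 stood at 144, 171 and 164, and Cox7a2l, which joins complexes III and IV into supercomplexes, at 71.8 ± 4.6, 61.2 ± 4.5 and 123 ± 2.7. The same mature c subunit of the ATP synthase ring is made from 3 genes, and Atp5g1 was the lowest of them in FPKM at each age, at 18.7, 19.0 and 21.6. Atp5g2 was at 39, 58.4 and 70.4, and Atp5g3 at 52.8, 82.0 and 86.2. In log2 CPM, which has no length divisor, Atp5g1 was above Atp5g2 in Control at each age. The means were 6.49 and 4.62 at 9 weeks, 6.56 and 5.23 at P28, and 6.33 and 5.12 at P5. Their order therefore depends on the length divisor.

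**Figure D1:**
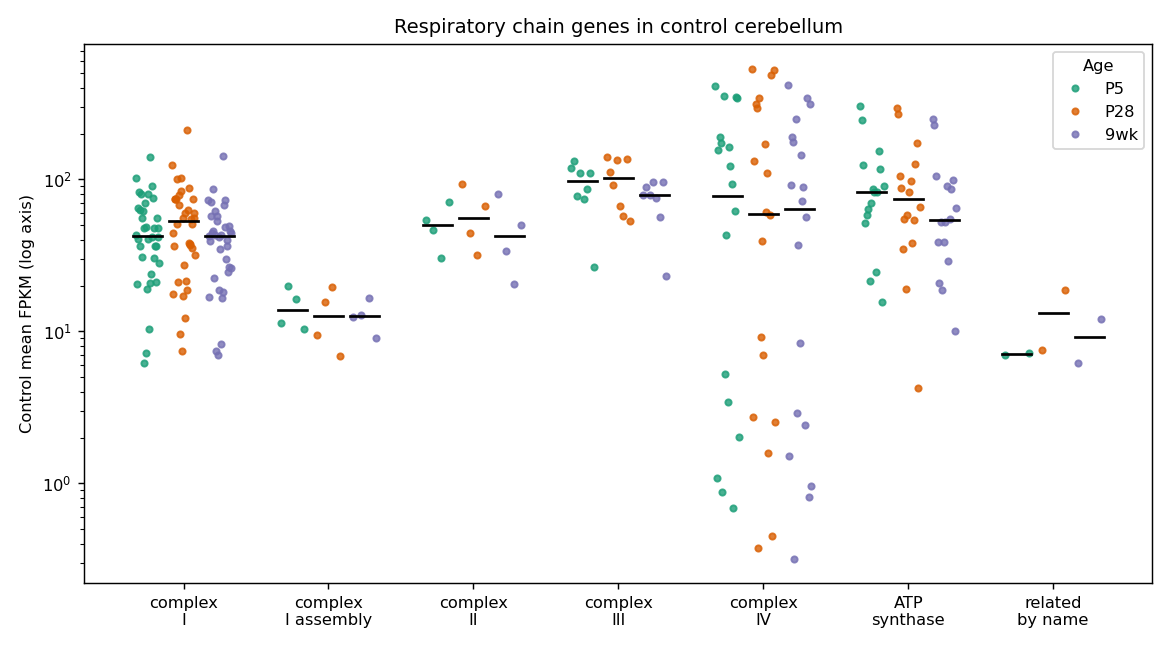
Mean FPKM in control libraries (log axis) for the members of each complex at P5, P28 and 9 weeks. Points are genes and black bars are medians over all genes of the complex, and Cox8c at all ages and Cox8b at P5 lie below the plotted range. Complex IV spans from its tissue isoforms near 1 FPKM to Cox4i1 above 400.

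At 9 weeks, loss of Rnaseh2b was asked about on its own. Of 87 members, 10 rose and 1 fell (12.6% called by limma at a Benjamini-Hochberg adjusted p below 0.05), against 20.2% of all 15078 genes tested, with 10.6% higher and 9.57% lower. The log2 fold change of 73 members was above 0 with a median of 0.09, against a median of 0.00 over all genes. The mean over the members was 0.09 ± 0.10 (SD, n = 7) above the control mean in Rnaseh2b, beside 0.09 ± 0.10 over 80 cytosolic ribosomal protein genes and 0.10 ± 0.09 over 19 glycolysis genes. With the ribosomal protein mean as a covariate, an alternative added after the data were seen, 2 members were called. By complex, 5 of 36 complex I members rose (Ndufa3, Ndufa7, Ndufa10, Ndufa12 and Ndufs8) and Ndufb2 fell, 2 of 8 rose in complex III (Uqcr10 and Uqcrq), 1 of 17 in complex IV (Cox7a2l), 1 of 16 in the ATP synthase (Atp5e) and Atp5s of the 2 related by name. No member of complex II and no Ndufaf gene was called, and 24 members had an unadjusted p below 0.05.

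Among the members called at 9 weeks, Atp5e, the epsilon subunit of the ATP synthase, had the largest log2 fold change. Ndufa4l2 had a larger one, 0.45 ± 0.27, that did not pass the test (adjusted p = 0.236, limma). The log2 CPM of Atp5e ran from 4.88 over a median of 5.11 to 5.40 in Control and from 5.26 over 5.45 to 5.92 in Rnaseh2b, so the groups overlapped. The log2 fold change of Atp5e was 0.39 ± 0.10 (SE, adjusted p = 0.0164, limma), a ratio of 1.31. Uqcr10, a small subunit of complex III, ran from 5.32 over 5.50 to 5.70 in Control and from 5.58 over 5.72 to 6.01 in Rnaseh2b, a rise of 0.27 ± 0.07 (adjusted p = 0.0148, limma). The 7 control values and the 7 mutant values overlapped again.

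Ndufs8, an iron-sulfur core subunit of complex I, rose by 0.23 ± 0.05 (adjusted p = 0.0101, limma). Its Control libraries ran from 5.41 over 5.52 to 5.64 and its Rnaseh2b libraries from 5.60 over 5.76 to 5.94, with a narrow overlap. Cox7a2l rose by 0.19 ± 0.05 (adjusted p = 0.0123), with Control from 6.13 over 6.31 to 6.44 and Rnaseh2b from 6.42 over 6.52 to 6.56. Only for Ndufa10, an accessory subunit of complex I, did the called groups stand apart: its highest Control value was 6.63 and its lowest Rnaseh2b value 6.64, with a fold change of 0.14 ± 0.04 (adjusted p = 0.0223). Ndufb2, another accessory subunit, fell by 0.19 ± 0.06 (adjusted p = 0.0401), from 5.15 over 5.25 to 5.39 in Control to a range from 4.91 over 5.04 to 5.26 in Rnaseh2b. Its call was kept in 9 of 24 alternatives. Calls were kept in 5 for Ndufa7 and Atp5s, in 10 for Ndufa3, and in 11 for Uqcrq and Ndufa12. The steadier ones were Ndufs8 (22), Atp5e, Uqcr10 and Cox7a2l (21 each) and Ndufa10 (20).

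Beside this, the 9-week mutants had higher microglia markers (8 of 10 rose) and oligodendrocyte markers (5 of 8 rose), and lower granule neuron markers (5 of 10 fell). Of all genes 20.2% were called in this comparison, 10.6% higher and 9.57% lower. The mean over the granule neuron list ran from -0.17 to 0.21 around the control mean in Control and from -0.78 to -0.16 in Rnaseh2b. Astrocyte and Bergmann glia markers (4 of 8 rose) had a list mean from -0.08 to 0.09 in Control and from 0.14 to 0.37 in Rnaseh2b, with no overlap. Pericyte and smooth muscle markers ran from -0.20 to 0.09 and from 0.06 to 0.49, and the oligodendrocyte list from -0.23 to 0.16 and from 0.13 to 0.85, both overlapping. The choroid plexus list ran from -1.14 to 1.11 in Control and from -3.18 to 0.93 in Rnaseh2b. The Purkinje cell list ran from -0.21 to 0.18 and from -0.17 to 0.47, and both of these lists overlapped too. The part of these shifts in the member values was not tested, and in whole tissue fewer cells of a type and less RNA per cell cannot be told apart. Within the 2 sets of library codes that the authors had adjusted to each other, 11 to 16 and 50 to 58, 0 members were called by limma in each. Leaving out single libraries gave from 5 calls (without Control 3, Control 4, Control 7, Rnaseh2b 1 or Rnaseh2b 6) to 21 (without Rnaseh2b 7). It gave 6 without Rnaseh2b 5 and 7 without Rnaseh2b 3 or Rnaseh2b 4.

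At P28 the members swung together between libraries of the same group. Around the control mean, the average over the 87 members was 0.13, -0.32, 0.11, 0.06 and 0.02 log2 CPM in Control 1 to 5. It was -0.23, -0.22, -0.14, 0.14 and -0.08 in Rnaseh2b, 0.05, -0.17, 0.05, -0.27 and 0.10 in Atm, and 0.05, -0.29, -0.15, -0.05 and -0.06 in Rnaseh2b/Atm. Control 2, Rnaseh2b/Atm 2 and Atm 4 were the lowest, and each group also held a library above 0. The 80 cytosolic ribosomal protein genes moved with them, at -0.44 in Control 2, -0.46 in Rnaseh2b/Atm 2 and -0.38 in Atm 4. Within groups, the SD was largest for the sparse isoform Cox7b2 (0.64), followed by Cox8a (0.61) and then by Uqcrq, Cox6a1 and Cox5b (each 0.59). Cox6a1 was at 8.0, 6.53, 8.04, 7.73 and 7.74 in Control and at 7.71, 7.36, 7.78, 6.26 and 8.05 in Atm, so single libraries of both groups lay more than 1 log2 unit below their neighbours. What sets these libraries apart was not tested.

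**Figure D2:**
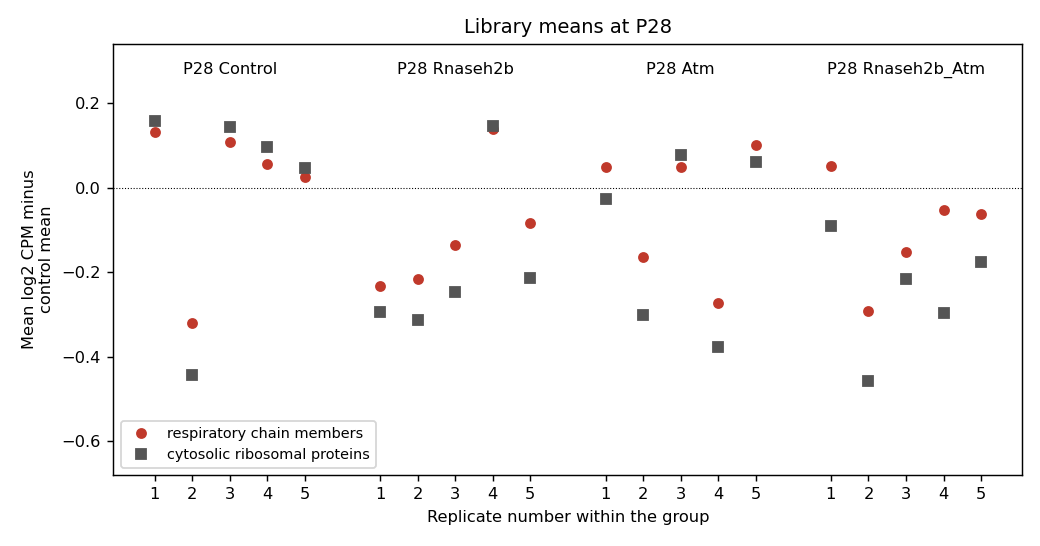
Mean over the 87 respiratory chain members (red circles) and over 80 cytosolic ribosomal protein genes (grey squares) in each P28 library, in log2 CPM less the control mean. Both lists were lowest in Control 2, Rnaseh2b/Atm 2 and Atm 4, at -0.32, -0.29 and -0.27 for the members.

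In P28 Rnaseh2b, 0 members were called against Control by limma (voom also called 0, and 12 had an unadjusted p below 0.05). Of all 16530 genes 5.21% were called, 2.85% higher and 2.36% lower. The median change was -0.07, with 26 of 87 members above 0. Without Control 2, 16 members fell and 2 rose, with 15.5% of all genes called. Without Rnaseh2b 4, 1 member fell, and without the 3 libraries lowest in ribosomal protein transcripts 28 fell and 7 rose, with 29% of all genes called. In P28 Atm, 0 members were called against Control (voom also called 0, and 5 had an unadjusted p below 0.05), against 1.86% of all genes, 0.944% higher and 0.92% lower. The median was -0.05, and without the same 3 libraries 1 member rose and 1 fell. Without Atm 3 alone 2 rose, and without Control 2 alone 1 rose.

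In P28 Rnaseh2b/Atm, where both deletions were combined, 15 members rose and 10 fell against Control. This was 28.7% of the 87 tested, against 63.6% of all genes, with 31.5% higher and 32.1% lower. The median size of change, without its sign, was 0.22 in the members and 0.34 over all genes. Against P28 Atm, 14 members rose and 6 fell (23%, against 61% of all genes, 30% higher and 31% lower). These comparisons share the Rnaseh2b/Atm libraries. When each library was centred on the median of its genes, the split against Control was 15 higher and 16 lower, and against Atm 13 higher and 9 lower. With 3 libraries low in ribosomal protein transcripts left out, 16 rose and 35 fell against Control, while with Control 2 alone left out 12 rose and 32 fell. These alternative counts are given without the share of all genes called in the same fit. They are therefore not a result about the members alone.

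The members that rose in P28 Rnaseh2b/Atm included catalytic and core subunits. Sdha, the flavoprotein of complex II that also acts in the tricarboxylic acid cycle, was at 8.52, 8.47, 8.51, 8.55 and 8.50 log2 CPM in Control and at 8.81, 8.89, 8.77, 8.86 and 8.78 in Rnaseh2b/Atm. The Rnaseh2b libraries (8.56, 8.58, 8.61, 8.59 and 8.48) and the Atm libraries (8.57, 8.41, 8.51, 8.63 and 8.47) reached 8.61 and 8.63 at most. All 5 Rnaseh2b/Atm libraries lay above the other 15. The rise was 0.31 ± 0.04 against Control (adjusted p = 2.77e-06, limma) and 0.30 ± 0.04 against Atm (adjusted p = 3.73e-06).

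Cox7a2l had the largest rise against Atm. It was at 6.29, 6.04, 6.17, 6.10 and 6.11 in Control, at 6.04, 6.02, 6.04, 5.78 and 6.16 in Atm, and at 6.50, 6.36, 6.52, 6.42 and 6.54 in Rnaseh2b/Atm. The Rnaseh2b libraries were at 6.09, 6.25, 6.24, 6.34 and 6.20. Rnaseh2b/Atm stood above every other library of the age. The log2 fold change was 0.33 ± 0.07 against Control (adjusted p = 0.000274, limma) and 0.46 ± 0.07 against Atm (adjusted p = 6.26e-06), a ratio of 1.37.

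Ndufb5, an accessory subunit of the membrane arm of complex I, was at 5.89, 5.81, 5.75, 5.81 and 5.77 in Control and at 6.28, 6.05, 6.29, 6.26 and 6.24 in Rnaseh2b/Atm, a rise of 0.42 ± 0.06 (adjusted p = 1.24e-05, limma). In Rnaseh2b alone its libraries were at 6.0, 6.01, 6.02, 5.91 and 5.97, all above Control, but that change of 0.18 ± 0.06 did not pass the test (adjusted p = 0.0996). Atp5g1 was at 6.65, 6.49, 6.58, 6.52 and 6.55 in Control and at 6.94, 6.88, 6.84, 6.93 and 6.89 in Rnaseh2b/Atm, with no overlap and a rise of 0.34 ± 0.07 (adjusted p = 0.000187).

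Further rises against Control were those of the complex I core subunit Ndufs1 (0.24), the complex III core protein Uqcrc2 (0.30), the assembly factor Ndufaf4 (0.36) and Atp5a1 (0.17), whose groups also did not overlap. Cox7a1 rose by 0.45 ± 0.11 (adjusted p = 0.00141, limma), with Control at 1.63, 1.16, 1.47, 1.28 and 1.24 and Rnaseh2b/Atm at 1.90, 1.72, 1.6, 2.0 and 1.79, which overlapped. Cox7a1 is also a gene of muscle. In the same libraries 5 of 11 skeletal muscle markers rose and 1 fell, beside 63.6% of all genes called. The mean over the muscle list ran from 0.93 to 1.32 in Rnaseh2b/Atm and from -0.42 to 0.47 in Control. The part of muscle transcripts in the Cox7a1 value was not tested.

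The 10 members that fell were 4 of complex I, 4 of the ATP synthase, 1 of complex IV and the assembly factor Ndufaf3. Atp5l, subunit g of the membrane part of the ATP synthase, showed the largest fall, of 0.73 ± 0.22 (adjusted p = 0.00704, limma). It was at 6.65, 5.51, 6.91, 6.62 and 6.41 in Control and at 5.86, 5.63, 5.45, 5.79 and 5.73 in Rnaseh2b/Atm. Only Control 2, at 5.51, lay within the mutant range. Rnaseh2b alone was at 5.72, 5.65, 5.73, 6.51 and 5.84, a change of -0.53 ± 0.22 that did not pass (adjusted p = 0.142). Atp5l2, whose reads may be shared with Atp5l, moved the other way, by 0.43 (adjusted p = 0.0205).

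Ndufv3, a small subunit near the NADH-oxidising site of complex I, was at 6.07, 5.78, 6.12, 6.03 and 6.07 in Control and at 5.65, 5.70, 5.57, 5.58 and 5.58 in Rnaseh2b/Atm. Its groups did not overlap even with Control 2 included, and it fell by 0.40 ± 0.07 (adjusted p = 4.88e-05, limma). Rnaseh2b lay between, at 5.76, 5.66, 5.74, 5.98 and 5.81, where the change of -0.23 ± 0.07 did not pass (adjusted p = 0.0567). Against Atm the fall was 0.42, again with no overlap.

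Atp5g2, which encodes the same mature c subunit as the risen Atp5g1, was at 5.37, 4.78, 5.41, 5.28 and 5.33 in Control and at 4.94, 4.84, 4.72, 4.88 and 4.77 in Rnaseh2b/Atm. Control 2 alone lay in the mutant range. It fell by 0.41 ± 0.10 (adjusted p = 0.00241, limma), while Atp5g3 was not called. The other members that fell against Control were Ndufb7 (by 0.50), Ndufa1 (by 0.47), Ndufa3 (by 0.45), Atp5k (by 0.41), Cox7a2 (by 0.36), Ndufaf3 (by 0.35) and Atp5e (by 0.32). Among the isoform pairs, Cox7a2 fell while Cox7a1 and Cox7a2l rose.

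**Figure D3:**
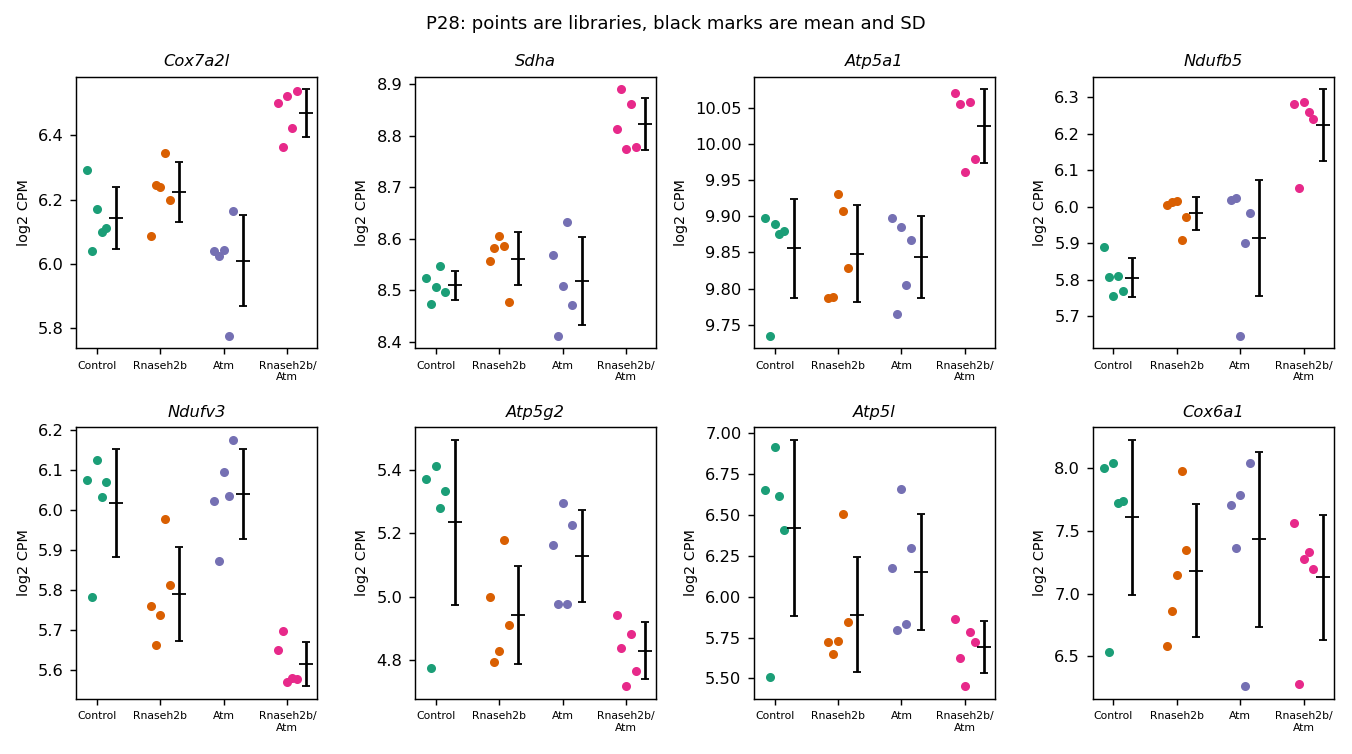
Log2 CPM of 8 members in every P28 library (coloured points) with group mean and SD (black). Cox7a2l, Sdha, Atp5a1 and Ndufb5 were highest in Rnaseh2b/Atm, and Ndufv3, Atp5g2 and Atp5l were lower there than in all Control libraries but Control 2 for the last pair. Cox6a1 shows the spread between libraries of 1 group.

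Against transcript length and GC content, members that rose in P28 Rnaseh2b/Atm against Control had longer transcripts (median 1367 bases, GC 48.3%, 14 with a length) than those that fell (529.5 bases, GC 54.3%, 10 genes) or were not called (823.5 bases, GC 52.4%). Across 86 members the Spearman rho of the log2 fold change was 0.44 with length and -0.51 with GC, against 0.065 and -0.23 over all genes. Against Atm it was 0.50 and -0.35 in the members, and 0.01 and -0.09 over all genes. The trend with GC was also present where no member was called. In P28 Rnaseh2b against Control rho was 0.37 with length and -0.44 with GC in the members, and 0.16 and -0.46 over all genes. In P28 Atm against Control it was 0.18 and -0.48 in the members, and 0.13 and -0.45 over all genes. These are correlations across genes of the same libraries, which also hold the members' common swing. The part of length or GC in the calls was not tested. Of the members with a promoter window, 4 of 10 that rose and 5 of 10 that fell held an NRF1, GABPA or YY1 motif, against 31 of 53 not called.

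Whether the Rnaseh2b effect differed with and without the Atm label was asked by an interaction term. It was called for 4 of 87 members (4.6%, against 37.7% of all genes, 18.7% higher and 19% lower). Cox7a2l had an extra rise of 0.38 ± 0.09 (adjusted p = 0.00348, limma), Sdha of 0.25 ± 0.06 (adjusted p = 0.00251) and Atp5a1 of 0.19 ± 0.06 (adjusted p = 0.0247). Atp5a1 was at 9.90, 9.73, 9.89, 9.88 and 9.88 in Control and at 10.07, 10.06, 9.96, 10.06 and 9.98 in Rnaseh2b/Atm, with the Rnaseh2b libraries between 9.79 and 9.93 and the Atm libraries between 9.76 and 9.90. Ndufb2 had a lower term, of -0.19 ± 0.07 (adjusted p = 0.0494). For Ndufb2 it was the Atm libraries that stood high, at 5.57, 5.62, 5.45, 5.59 and 5.60, against 5.40, 5.28, 5.32, 5.41 and 5.45 in Rnaseh2b/Atm, and its call was kept in 8 of 31 alternatives.

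Cell type markers moved beside these member changes in P28 Rnaseh2b/Atm, where 63.6% of all genes were called (31.5% higher and 32.1% lower). All 10 granule neuron markers fell, with a list mean from -2.06 to -1.23 around the control mean, against -0.08 to 0.09 in Control, and all 8 oligodendrocyte markers fell. All 10 microglia markers rose, with a list mean from 0.55 to 0.94 against -0.12 to 0.12 in Control, as did 7 of 10 Purkinje cell and 7 of 8 endothelial markers. Their part in the member values was not tested.

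The subunits encoded by mitochondrial DNA were measured beside the nuclear ones, and the difference between the lists was not tested. Of 13 tested, 9 rose in Rnaseh2b against Control, with mt-Nd1 at 0.37 (adjusted p = 0.0171, limma), mt-Nd5 at 0.35 and mt-Nd6 at 0.44, all of complex I. Of all genes 5.21% were called in this comparison, 2.85% higher and 2.36% lower. The list mean ran from 0.22 to 0.31 in Rnaseh2b and from -0.06 to 0.07 in Control, with no overlap. In Rnaseh2b/Atm 9 rose and 1 fell against Control, with mt-Nd6 at 0.57, mt-Nd5 at 0.42 and mt-Nd1 at 0.42, while the interaction was called for 0 of 13. Of all genes 63.6% were called in Rnaseh2b/Atm against Control (31.5% higher and 32.1% lower), and 37.7% for the interaction. These P28 libraries were poly-A selected, and the length of the tails of mitochondrial transcripts was not measured. At 9 weeks and at P5, in total RNA, 0 of 13 were called in Rnaseh2b or Rnaseh2b/Atm against Control. Of all genes 20.2% were called at 9 weeks, and at P5 0.681% in Rnaseh2b and 9.86% in Rnaseh2b/Atm.

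Other genes of the pathway were called in P28 Rnaseh2b/Atm against Control at shares to be read against the 63.6% of all genes called there (31.5% higher and 32.1% lower). Of 18 tricarboxylic acid cycle genes 10 rose and 2 fell, led by Suclg2 (0.74), Idh3a (0.55) and Sucla2 (0.48). Of 17 carriers and exchangers 9 rose, among them the outer membrane channel genes Vdac1 (0.37) and Vdac3 (0.21), and 2 fell, among them Pdss1 (-0.36) of coenzyme Q synthesis. Of 25 assembly factors outside the naming rule 8 rose and 7 fell, the former led by Tmem126b (0.40), Atpaf1 (0.47) and Atpaf2 (0.49). Of 16 regulators of mitochondrial biogenesis 10 fell, among them the mitochondrial DNA polymerase genes Polg2 (-1.05) and Polg (-0.24), and 2 rose, among them the coactivator gene Ppargc1a (0.60). Of 19 glycolysis genes 9 rose and 4 fell, with Gpi1 (0.36), Pfkp (0.30) and Ldhb (0.45) having the smallest adjusted p. At 9 weeks, where 20.2% of all genes were called, 7 of the 16 regulators fell in Rnaseh2b, among them Yy1 (-0.19), Gabpa (-0.19) and Ssbp1 (-0.17), while 3 of 18 tricarboxylic acid cycle genes rose.

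At P5 no member passed the limma test in a single deletion, with 3 libraries a group. In Rnaseh2b against Control 0 of 85 were called (1 at an unadjusted p below 0.05), against 0.681% of all 15421 genes, 0.298% higher and 0.383% lower. In Atm 0 were called (0 at an unadjusted p below 0.05), against 0% of all genes, and in p53 0 (2 at an unadjusted p below 0.05), against 0.175%, 0.0778% higher and 0.0973% lower. Nor did voom call any member in these comparisons. The median change was 0.04, 0.00 and -0.06 in that order. The change was above 0 for 64 of 85 members in Rnaseh2b and for 44 in Atm, and below 0 for 76 in p53.

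In P5 Rnaseh2b/Atm 3 of 85 members rose against Control and none fell (3.53%, against 9.86% of all genes, 6.48% higher and 3.38% lower). They were Ndufc2 (0.32), Uqcr11 (0.26) and Ndufv3 (0.21). Ndufc2, an accessory subunit of the membrane arm of complex I, was at 5.68, 5.77 and 5.69 in Control and at 6.01, 6.10, 6.05 and 5.95 in Rnaseh2b/Atm, with no overlap (adjusted p = 0.00446, limma). Against Atm, at 5.62, 5.73 and 5.53, it rose by 0.40 ± 0.06 (adjusted p = 0.000782). Cox6c was the other of 2 members that rose against Atm (2.35%, against 9.5% of all genes, 7.48% higher and 2.02% lower). It was at 6.89, 6.76 and 6.72 in Atm and at 7.13, 7.21, 7.06 and 6.95 in Rnaseh2b/Atm, again with no overlap, a rise of 0.30 ± 0.07 (adjusted p = 0.0148). The count against Atm was 9 without Rnaseh2b/Atm 4, 6 without Atm 1, and 1 without Atm 2 or Rnaseh2b/Atm 2.

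Of 85 members 78 had a change above 0 in Rnaseh2b/Atm against Control, with a median of 0.11. Without Control 2, 33 members rose, with 26.1% of all genes called. The count was 5 without Rnaseh2b/Atm 4, and 1 without Control 1, Control 3 or Rnaseh2b/Atm 1, 2 or 3. Control 2 stood high in the member mean, at 0.15 against -0.07 and -0.07 in the other controls, and low in Purkinje cell markers, at -0.49 against 0.12 and 0.37. In Rnaseh2b/p53 0 members were called against Control (13 at an unadjusted p below 0.05, against 0.428% of all genes called, 0.201% higher and 0.227% lower), with 80 of 85 below 0 and a median of -0.11. Against p53 0 were called (1 at an unadjusted p below 0.05, against 0.188%, 0.123% higher and 0.0648% lower), and voom called 0 in both. The interactions of Rnaseh2b with Atm and with p53 were called for 0 members by limma (2 at an unadjusted p below 0.05 in each), against 0% and 0.00648% of all genes.

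The compound groups were then set against each other at P5, a comparison added after the data were seen that shares no control libraries. In Rnaseh2b/Atm 58 of 85 members were higher than in Rnaseh2b/p53 and 0 were lower (68.2%, against 27.9% of all genes, 13.9% higher and 14% lower). The median difference was 0.23. By complex, 24 of 36 complex I members were higher, 4 of 4 of complex II, 6 of 8 of complex III, 11 of 15 of complex IV and 12 of 16 of the ATP synthase, but 0 of 4 Ndufaf assembly factors. The member mean around the control mean ran from 0.05 to 0.22 in Rnaseh2b/Atm and from -0.17 to -0.03 in Rnaseh2b/p53.

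Uqcr10 of complex III was at 5.94, 6.10, 5.94 and 5.82 in Rnaseh2b/Atm and at 5.53, 5.36, 5.49 and 5.42 in Rnaseh2b/p53, a difference of 0.50 ± 0.09 (adjusted p = 0.00138, limma). Control lay between and across, at 5.60, 5.97 and 5.60. Uqcr11 was at 6.27, 6.38, 6.28 and 6.14 against 6.0, 5.78, 5.83 and 5.70, a difference of 0.44 ± 0.07 (adjusted p = 0.000691). In both the 2 compound groups stood apart.

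Ndufc2 differed by 0.36 ± 0.06 (adjusted p = 0.000563, limma), its Rnaseh2b/p53 libraries being at 5.77, 5.59, 5.68 and 5.63. Atp5g1 was at 6.69, 6.76, 6.53 and 6.60 against 6.16, 6.09, 6.14 and 6.27, a difference of 0.48 ± 0.11 (adjusted p = 0.00672). Cox7a1 had the largest difference, 0.87 ± 0.21 (adjusted p = 0.0092), with 0.33, 0.37, 0.41 and 0.25 in Rnaseh2b/Atm and -0.49, -1.0, -0.46 and -0.18 in Rnaseh2b/p53. It was followed by Cox6b2, the isoform best known from testis, at 0.80. Their common partners were also higher, Cox7a2 by 0.21 and Cox6b1 by 0.25.

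**Figure D4:**
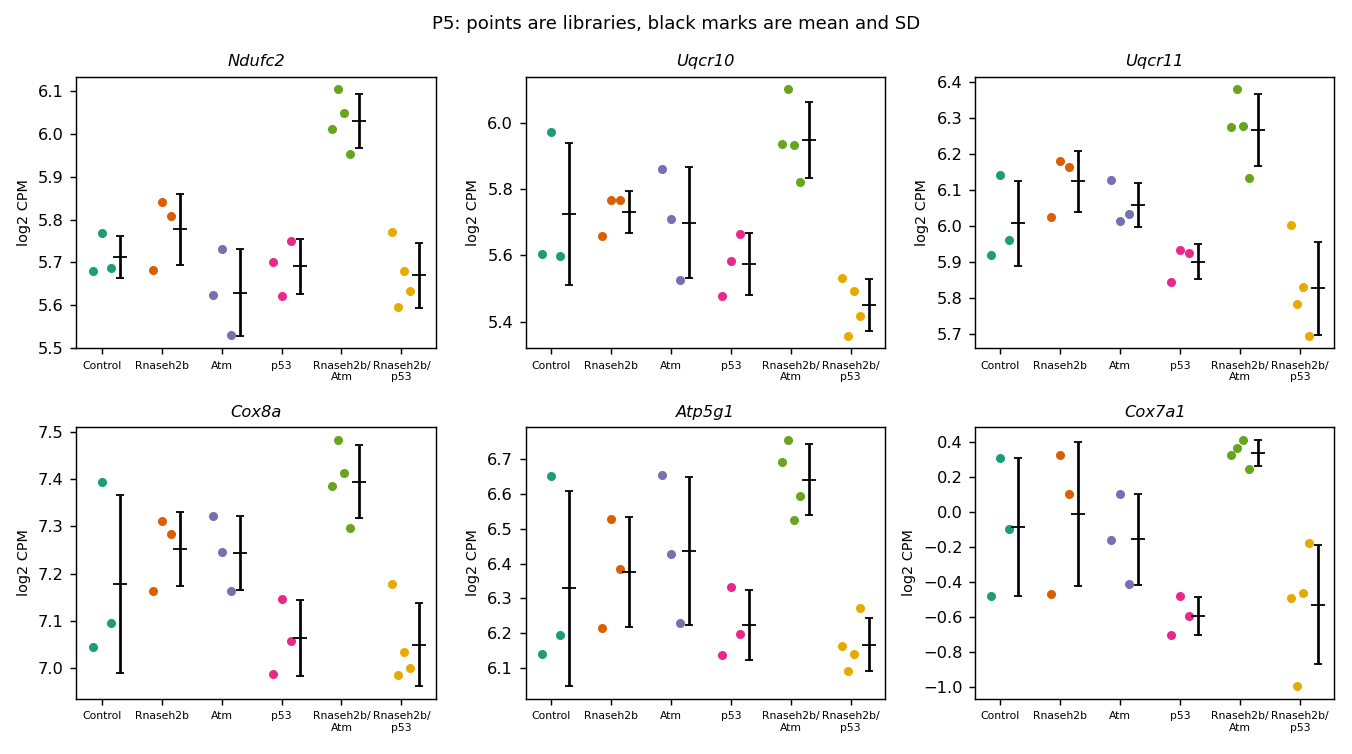
Log2 CPM of 6 members in every P5 library (coloured points) with group mean and SD (black). Rnaseh2b/Atm libraries stood above all Rnaseh2b/p53 libraries in each panel, and Control 2 stood above the other controls.

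Genes of other lists were called between the compound groups too, beside the 27.9% of all genes. Of 18 tricarboxylic acid cycle genes 12 were higher in Rnaseh2b/Atm and 0 lower, among them Mdh2 (0.28) and Pcx (0.58). Of 19 glycolysis genes 9 were higher and 1 lower, and of the 13 mitochondrially encoded subunits 0 were called. The receptor gene Esrra, a regulator of mitochondrial genes, was higher by 0.49 and Ppargc1b by 0.80, while 4 of 16 regulators were lower, among them Polg2 (-0.47). Of 80 cytosolic ribosomal protein genes 14 were lower and 1 higher.

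Markers of cell types differed in the same comparison. Of 10 microglia markers 9 were higher, with a list mean from 0.49 to 0.70 in Rnaseh2b/Atm and from -0.26 to -0.11 in Rnaseh2b/p53, and 4 of 10 Purkinje cell markers were higher. Of 8 granule progenitor markers 3 were lower, with a list mean from -0.77 to -0.31 against 0.17 to 0.54. Of 14 skeletal muscle markers 3 were higher, with means from 1.18 to 2.22 and from 0.63 to 1.58, against -0.38 to 0.22 in Control. Their part in the member differences was not tested. The count of higher members was 31 without Rnaseh2b/Atm 2, 36 without Rnaseh2b/p53 2 and 33 with the ribosomal protein mean as a covariate.

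**Figure D5:**
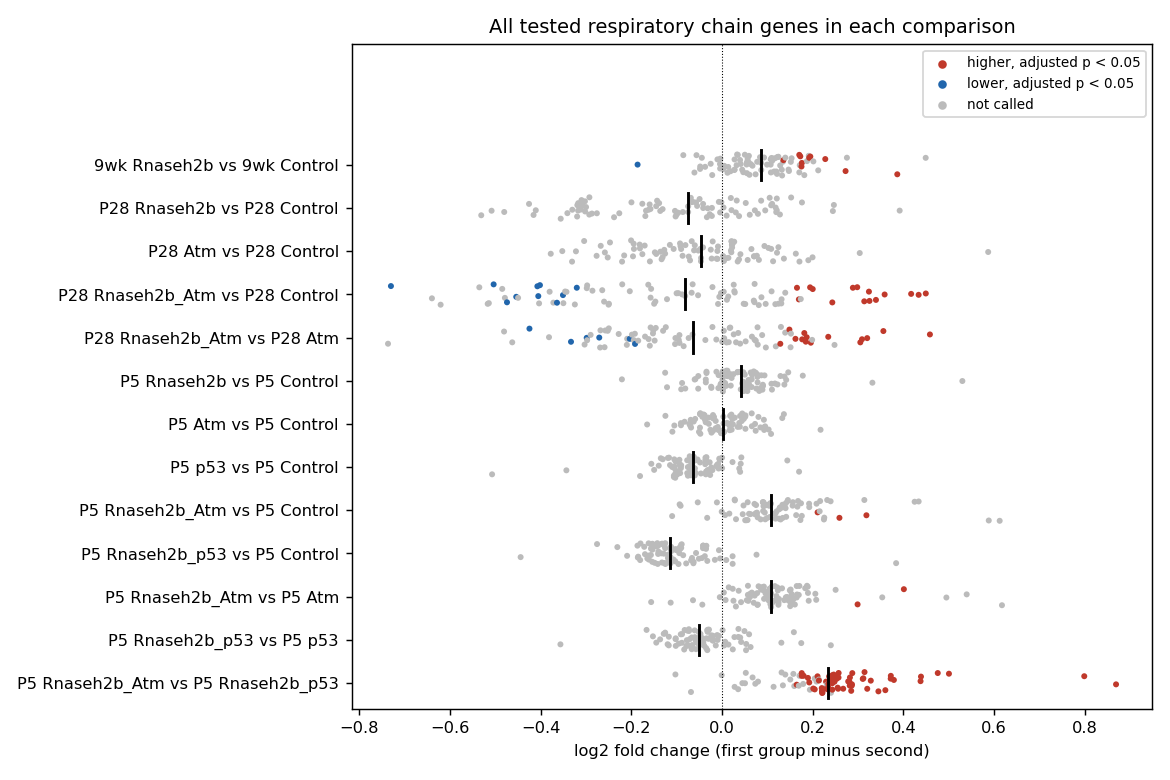
Log2 fold change of every tested member in the 13 comparisons, with the median as a black bar (red higher, blue lower, at a limma adjusted p below 0.05; grey not called). Members were called in both directions in P28 Rnaseh2b/Atm, and 58 were higher in P5 Rnaseh2b/Atm than in P5 Rnaseh2b/p53.

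The 9-week and P28 libraries share no samples, so their calls can be laid over each other. In P28 Rnaseh2b/Atm 28.7% of the 87 members were called against Control and 23% against Atm, and overlaps have to be read against these shares. Of the 11 members called at 9 weeks, 4 were also called in P28 Rnaseh2b/Atm against Control (4 of 25 there): Atp5s and Cox7a2l rose in both, while Atp5e and Ndufa3 rose at 9 weeks and fell at P28. With P28 Rnaseh2b/Atm against Atm the overlap was again 4 (4 of 20 there), all in the same direction: Atp5s, Cox7a2l and Ndufa10 rose and Ndufb2 fell. Of 24 alternatives, the 9-week call was kept in 5 for Atp5s, 9 for Ndufb2 and 10 for Ndufa3. It was kept in 20 for Ndufa10 and in 21 each for Cox7a2l and Atp5e. Cox7a2l did not pass the test in P5 Rnaseh2b/Atm against Control, at -0.03 ± 0.06 (adjusted p = 0.732, limma). Ndufv3, which fell at P28 and rose at P5 in Rnaseh2b/Atm, stood at -0.02 ± 0.05 at 9 weeks (adjusted p = 0.768).

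Genes most like the mean of the members were named by the Pearson correlation of their values after group means were taken off. Over the 20 P28 libraries these were Hint1 (0.98), Mrpl20 (0.98) and Apoa1bp (0.97), and the median correlation was 0.84 for the members, 0.86 for cytosolic ribosomal protein genes and -0.02 over all genes. Atp5l2 (-0.72), Ndufs1 (-0.69), Ndufaf4 (-0.62) and Uqcrc2 (-0.60) ran against the other members between libraries. Over the 20 P5 libraries the most alike were Gm10039 (0.95), Gm8910 (0.94) and Mgst3 (0.93). There the median was 0.82 for the members but -0.38 for the ribosomal protein genes. Over the 14 libraries of 9 weeks they were Fcgrt (0.96), Sdf2 (0.94) and Gabarapl2 (0.93), with a member median of 0.73. The points of each correlation share their libraries and depth.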

How the data were processed

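Per the labels' protocols, RNA was extracted with TRIzol, prepared with a TruSeq stranded total RNA kit and read on an Illumina HiSeq. The titles of the P28 libraries name poly-A enrichment instead of total RNA. Per the submitters' processing notes the tools included Trim Galore, STAR, BWA, HTSeq and limma with build mm9, with neither roles nor versions named. The deposited log2 CPM values were tested as the authors gave them, and the deposited FPKM values were used for levels and as a second scale. At P28 and P5 all values came out as whole reads (100% within 0.01), giving 24.1 to 89.7 M reads in genes at P28. At P5 the range was 48.2 to 95.1 M, leaving out Rnaseh2b/p53 3, which came out at 711 M. The reason for that value was not tested. Depth at 9 weeks is unknown, since the authors had adjusted those values: the means of the library codes 11 to 16 and 50 to 58 were equal within 3.1e-09 log2 CPM, so the spread there may be understated. The 9-week FPKM values as deposited by the authors include 30976 below 0, so they are a score rather than true FPKM, and these were set to 0. At P5, 3 rows that name no gene held 19.7 to 31.7% of CPM and were dropped.

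Genes with at least 1 CPM in 7 (9 weeks), 5 (P28) or 3 (P5) libraries were fitted per age, all groups together, with limma 3.58.1 (trend) in R 4.3.3. P-values were adjusted by Benjamini-Hochberg over all genes tested, and calls made below 0.05. The alternative for counts was limma's voom on recovered reads, with trimmed-mean scaling computed in R. Any member could be named, and up to 4 rises and falls per comparison and up to 3 called genes of each other list by smallest adjusted p. Members and lists were chosen with earlier results of these data known. Transcript lengths and GC came from GENCODE (GRCm38), and promoter windows from RefSeq. The fits were tested on simulated data. Replicate numbers paired only P5 p53 with Control (r from 0.26 to 0.55 in 3 of 3 pairs), where the blocked fit also called 0 members. Some results are not reported here.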

Additional observations from a re-analysis of the deposited data

Results flagged for a closer look

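In 22 of 200 groups of values looked at (11%, where chance gives about 5%), 1 library lay far from the others of its group. The groups of values share libraries, so they are not independent. P5 groups of 3 libraries were too small to be looked at, so P5 Control 2 could not be flagged. P28 Control 2 was low in the mean over members (-0.32 around the control mean) and in Atp5a1 (9.73 log2 CPM), Atp5e (5.50), Uqcr10 (5.49), Ndufb7 (5.33), Ndufv3 (5.78), Cox8a (7.23), Cox6a1 (6.53), Atp5g2 (4.78) and Uqcr11 (5.51). These values share 1 library and are not separate findings. P28 Rnaseh2b/Atm 2 was low in Cox6a1 (6.28) and Ndufb5 (6.05), and P28 Rnaseh2b 4 was high in Ndufa3 (6.27) and Atp5l (6.51). Among P28 Atm libraries, Atm 4 was low in Cox8a (6.50), Atm 3 in Ndufb2 (5.45), and Atm 2 stood apart in Cox7a2 (6.61).

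At P5, Rnaseh2b/Atm 2 stood apart in Ndufb5 (6.17) and Rnaseh2b/Atm 4 in Atp5g2 (4.80). At 9 weeks, Control 7 stood apart in Ndufv3 (5.53), Control 4 in Cox7a2 (6.48) and Rnaseh2b 5 in Ndufa10 (6.84).

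At P28 the effect of Rnaseh2b loss differed with and without the Atm label for 4 of 87 members (4.6%), against 37.7% of all genes. By the interaction term of the limma fit these were Cox7a2l (0.38), Sdha (0.25), Atp5a1 (0.19) and Ndufb2 (-0.19). The call of Ndufb2 was kept in 8 of 31 alternatives.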

How the results depend on the processing

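Over 83 gene results and 1721 alternative values, 1464 kept the call, 257 lost it in the same direction and 0 reversed. Counts of called members moved by over 1.5 times as follows, and the cause was not tested. The counts in this section are given without the share of all genes called in each fit. At 9 weeks the 11 calls became 6 with a replicate block, 6 with Xist as a covariate, 2 with the ribosomal protein mean as a covariate (added after seeing the data), 0 within codes 11 to 16 and 0 within codes 50 to 58, and from 5 to 21 without single libraries. At P28, with the ribosomal protein mean as a covariate, 2 were called for Rnaseh2b, 2 for Atm, 36 (main 20) for Rnaseh2b/Atm against Atm and 11 (main 4) for the interaction. Without the 3 libraries low in ribosomal protein transcripts (added after seeing the data) the counts were 35 for Rnaseh2b, 2 for Atm, 51 (main 25) for Rnaseh2b/Atm against Control and 11 for the interaction. Without the 7 lowest such libraries they were 4 for Rnaseh2b, 0 for Atm, and 49 and 39 for Rnaseh2b/Atm against Control and against Atm. Fitting only the groups compared gave 3 for Rnaseh2b.

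Single P28 libraries left out gave 0 to 18 for Rnaseh2b (18 without Control 2), 0 to 2 for Atm (2 without Atm 3), 18 to 44 for Rnaseh2b/Atm against Control (44 without Control 2), 15 to 26 against Atm and 3 to 6 for the interaction. At P5, Rnaseh2b/Atm against Control (main 3) gave 9 on log2 of FPKM plus 0.1 and 9 plus 1, 0 with only the groups compared, 1 with Xist as a covariate, 37 without Control 2 and Atm 1 together, and 1 to 33 without single libraries. Against Atm (main 2) the same settings gave 8, 8 and 1, with 13 without both libraries, 4 with a replicate block, 5 with the ribosomal covariate and 1 to 9 without single libraries. Rnaseh2b against Control gave 1 without Control 2 and Atm 1. Rnaseh2b/Atm against Rnaseh2b/p53 (main 58) gave 33 with the ribosomal covariate and 31 to 57 without single libraries. The replicate numbers did not pair these groups, and the block gave 31, 24 and 3 for the P28 Rnaseh2b/Atm comparisons and the interaction. Depth at 9 weeks is unknown, so its part there could not be judged.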
